A study of Homo sapiens with 2 samples.

Results

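The genes described here are the 10 that encode the MCM replicative helicase and the factors that load or first activate it. They are MCM2, MCM3, MCM4, MCM5, MCM6, MCM7, MCM10, CDC6, CDT1 and ORC1, out of 19775 named genes on the array. They were read by 21 of 54675 probe sets, counting every probe set that the platform annotation gives to 1 of these genes alone. Each probe set is a pool of short oligonucleotides matched to 1 part of a transcript. No probe set that names several genes included a member. The genes were chosen by function with their log2 differences between these arrays already known, that of MCM4 above all, so all values below are descriptions and none is tested.

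MKN28 is an established line from a human gastric cancer, which registries list as a derivative of another gastric line, and it was studied in a Sox2 overexpressing and a control state. Cells labelled Sox2 had received the gene by lentivirus and been selected with puromycin. The labels do not say whether the control cells carried an empty virus or met the drug, so Sox2, infection and selection cannot be told apart. Total RNA from 1 sample of each kind was read on 1 Affymetrix array each.

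With 1 array per group no replicate spread and no p-value can be given. The only spread at hand is technical. Over 3471 genes with 2 readable probe sets, the disagreement between the probe sets of a gene gave a robust SD of 0.28 on the log2 scale for 1 probe set, or 1.21-fold. It leaves out variation between cultures and arrays. A probe set was called readable when its higher value was at least 34.25, the median over the whole array. Differences are log2 of the deposited intensity in the array labelled Sox2 minus that in the control, and 2-fold was the size at which a gene was counted.

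Directions below rest on the labels, since SOX2 was not clearly higher on the array named for it: its brightest probe set read 172 on the Sox2 array and 123 on the control array (1.40-fold), and its 3 others differed by 0.31, -0.023 and -0.46. Of 5 epithelial markers, EPCAM read 4.96 and 6.32, below the readable level, while KRT8, KRT18, KRT19 and CDH1 were readable and summed to 240 and 262. Markers that an epithelial line should lack were not at 0. Of 6 leukocyte and endothelial genes 4 were readable, summing to 297 and 283. Of 6 fibroblast genes 5 were readable, summing to 1173 and 1121, most of it from COL1A1 (557 and 576) and COL3A1 (418 and 374). By the same rule 14253 of all 19775 genes were readable, so these counts are near the share that the filter sets. Signal at these intensities therefore does not show that a gene is expressed, and probe sets of different genes cannot be ranked by level. The poly-A spike-ins, bacterial transcripts put into the RNA ahead of labelling, had 24 probe sets, which all gave lower values on the Sox2 array (median -0.75). Scaling on them would lift every gene by that amount.

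DNA replication starts from origins that are licensed once per cell cycle. ORC1 is the largest subunit of the origin recognition complex, which sits on DNA and recruits CDC6, an ATPase. CDC6 and CDT1 then load the ring of MCM2 to MCM7, the motor that unwinds DNA, as an inactive double ring in G1. In S phase MCM10 helps to turn the loaded rings into moving helicases. Transcription of most of these genes is known to be driven by E2F factors, which the retinoblastoma protein holds back until cells commit to S phase.

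What the promoters share was read from RefSeq sequence (GRCh38.p14), in the 250 bases before each annotated start. This table held 8 of the 10 genes, and MCM4 and MCM5 were not analysed here. An E2F word was any of TTTGGCGC, TTTGCCGC, TTTCGCGC or TTTCCCGC on either strand. It was present for 4 of the 8 genes, CDT1, MCM3, MCM6 and MCM7, against 3.40% of 27305 genes. A CCAAT box, CCAAT on either strand, was present for 6 of 8 against 37.0% of genes. AACAAT, the core of the SOX recognition sequence, was present on either strand for 0 of 8, against 10.9% of genes. The windows below show the E2F words in capitals for the helicase subunits and the loader that carry them, 5′ to 3′ on the gene's own strand. Genes with several annotated starts were counted once, and MCM7 is shown before the most upstream of its starts. Its other E2F word, 187 bases before that start, lies outside the window. In MCM6 an E2F word and the reverse complement of another overlap by 4 bases, and this compound site occurs at 2 places.
MCM6, chr2:135876509-135876608, minus strand: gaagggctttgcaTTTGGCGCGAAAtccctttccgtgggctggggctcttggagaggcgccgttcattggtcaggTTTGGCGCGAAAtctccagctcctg
MCM3, chr6:52284893-52284932, minus strand: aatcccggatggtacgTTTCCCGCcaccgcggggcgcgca
MCM7, chr7:100101398-100101457, minus strand: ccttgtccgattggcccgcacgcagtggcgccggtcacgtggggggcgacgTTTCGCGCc
CDT1, chr16:88803729-88803788, plus strand: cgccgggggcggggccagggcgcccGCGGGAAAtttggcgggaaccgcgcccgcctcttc

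CDC6 is shown with its 3 CCAAT boxes in capitals, since it held no E2F word as spelled here. Such matches are letters in a window. The arrays measured RNA and hold no reading of any factor's binding.
CDC6, chr17:40287744-40287843, plus strand: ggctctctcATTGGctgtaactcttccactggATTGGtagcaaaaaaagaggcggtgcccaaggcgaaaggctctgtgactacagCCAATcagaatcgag

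Each array read RNA of a whole culture, so a changed share of cells in S phase and a changed amount of RNA per cell cannot be told apart. Most members differed little between the arrays, and the 1 large readable difference came from a single probe set of MCM4. Of the 10 genes, 7 had a readable brightest probe set, beside 14253 of all 19775 genes, and MCM6, MCM10 and ORC1 did not. By that probe set 1 of the 7, MCM4, was 2-fold or more above the control, against 2.05% of 14253 genes, and none was 2-fold below it, against 0.645%. MCM4 alone was also counted at 1.5-fold (6.46% of genes above and 3.77% below) and at 3-fold (0.0982% above and 0.0351% below). MCM4's difference was among those that led to the choice of these genes, so nothing is read from the count. The 6 others lay between -0.0059 and 0.32, that is, within 1.25-fold. Their median was 0.24, beside -0.0032 for all readable genes. CDC6 was readable only through its higher value in the array labelled Sox2, so it could enter this median only from that side. Without the bright MCM4 probe set no member reached 2-fold. Neither did any when the probe sets of each gene were averaged, where MCM4 differed by 0.50.

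**Figure D1:**
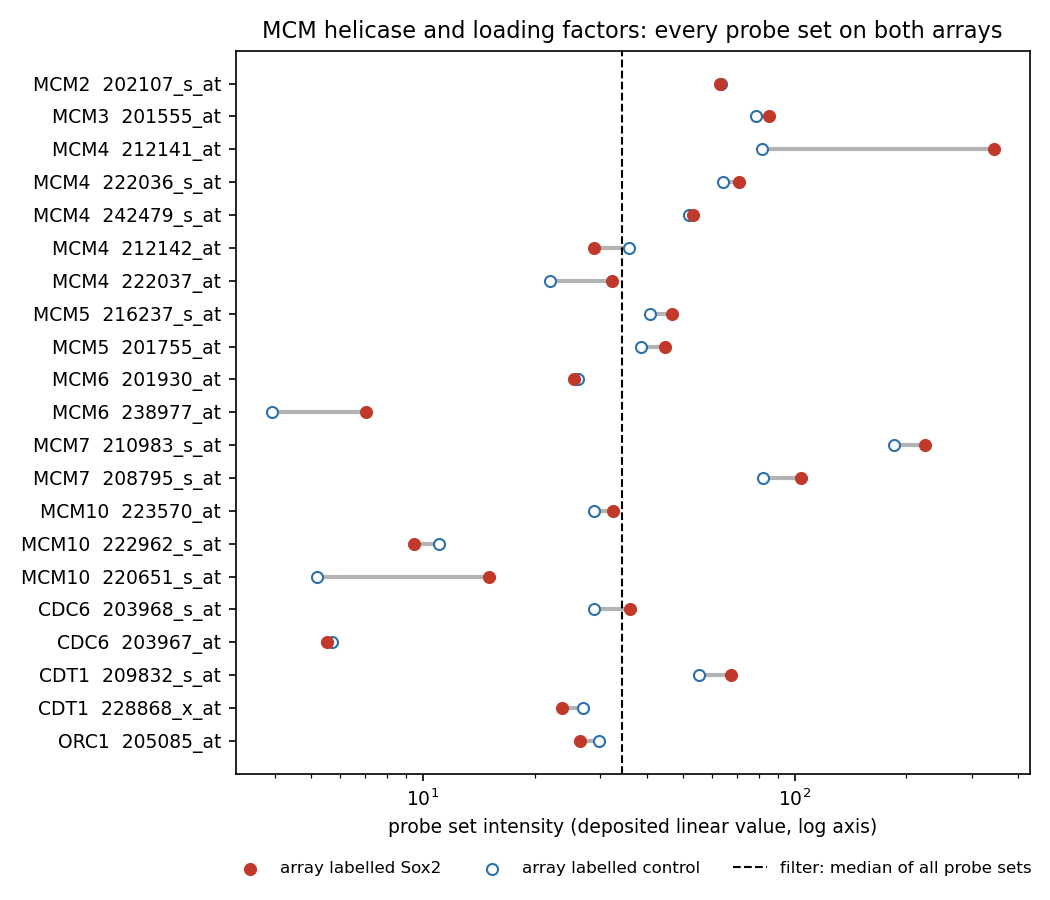
Intensity of each of the 21 probe sets (log axis), filled for the array labelled Sox2 and open for the control, 1 row per probe set, with the readable level of 34.25 dashed. The points of most rows lie close together, and the widest gaps are those of MCM4 212141_at (343.21 and 81.92) and of MCM10 220651_s_at, which is dim on both arrays (15.03 and 5.19).

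The helicase subunits MCM2 and MCM3 had 1 probe set each. MCM2, whose tail also binds histones, read 63.14 on the Sox2 array and 63.40 on the control array, a difference of -0.0059. MCM3 read 85.18 and 78.80, a difference of 0.11. Both differences were smaller than the technical SD, and as large a difference as that of MCM3 was found in 68.4% of 22938 readable named probe sets.

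MCM4, a subunit of the core helicase motor with MCM6 and MCM7, was read by 5 probe sets that did not give 1 answer. Probe set 212141_at read 343.21 on the Sox2 array and 81.92 on the control array, a difference of 2.07 or 4.19-fold. The 4 other probe sets showed nothing of that size. Probe set 222036_s_at read 71.00 and 64.02 (0.15). Probe set 242479_s_at read 53.26 and 51.99 (0.035). Probe set 212142_at was the other way round, at 28.92 and 35.92 (-0.31), and was readable only through its control value. The last, 222037_at, read 32.18 and 21.93 (0.55), below the readable level on both arrays. Thus 4 of 5 were higher in the array labelled Sox2, but 3 of the 4 readable ones differed by less than 1.25-fold. Where each probe set lies on the MCM4 transcript is not known here.

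The 4.19-fold reading, known when these genes were chosen, was rare on these arrays. Of 22938 readable named probe sets, 6 differed by at least as much in either direction, and this one was the fifth largest upward. At its level the differences between the arrays were wide. With readable probe sets cut into 10 bins by level, the robust SD was 0.52 in its bin, the brightest. That bin also held the brighter MCM7 probe set. The robust SD was 0.23 to 0.25 in the bins that hold MCM2, MCM3, MCM5 and the MCM4 probe sets 222036_s_at and 242479_s_at. It was 0.44 in the dimmest bin, which held the readable CDC6 probe set and MCM4 212142_at, both with a mean below 34.25. Such probe sets are readable only if the arrays differ, so the filter itself raises the spread in that bin.

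Disagreement of this kind was also seen in other genes. Of 469 genes with 4 readable probe sets, the gap between the highest and lowest difference had a median of 0.55 and was 2.38 for MCM4, the second largest. In 15 of the 469, or 3.20%, exactly 1 probe set differed by at least 2-fold and the other 3 by less than 1.5-fold. That probe set was higher in the array labelled Sox2 in 10 of the 15 and lower in 5. It was the brightest of its gene in 8. Those of TMED5, CALD1 and SLC25A37 were readable only through their Sox2 value, so they could be counted only as higher. All 5 lower ones were readable on both arrays, so nothing is read from the split. MCM4, chosen with its difference known, had the largest such difference. The next were TMED5, a cargo receptor of the secretory pathway (61.49 and 23.51, 2.62-fold higher), and PIP4K2B, a lipid kinase (223.11 and 549.19, 2.46-fold lower). CALD1, an actin-binding protein, read 78.89 and 32.41 (2.43-fold higher), and MTMR3, a lipid phosphatase, 50.43 and 117.06 (2.32-fold lower). In these genes the choice of probe set decides whether a 2-fold difference is counted.

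**Figure D2:**
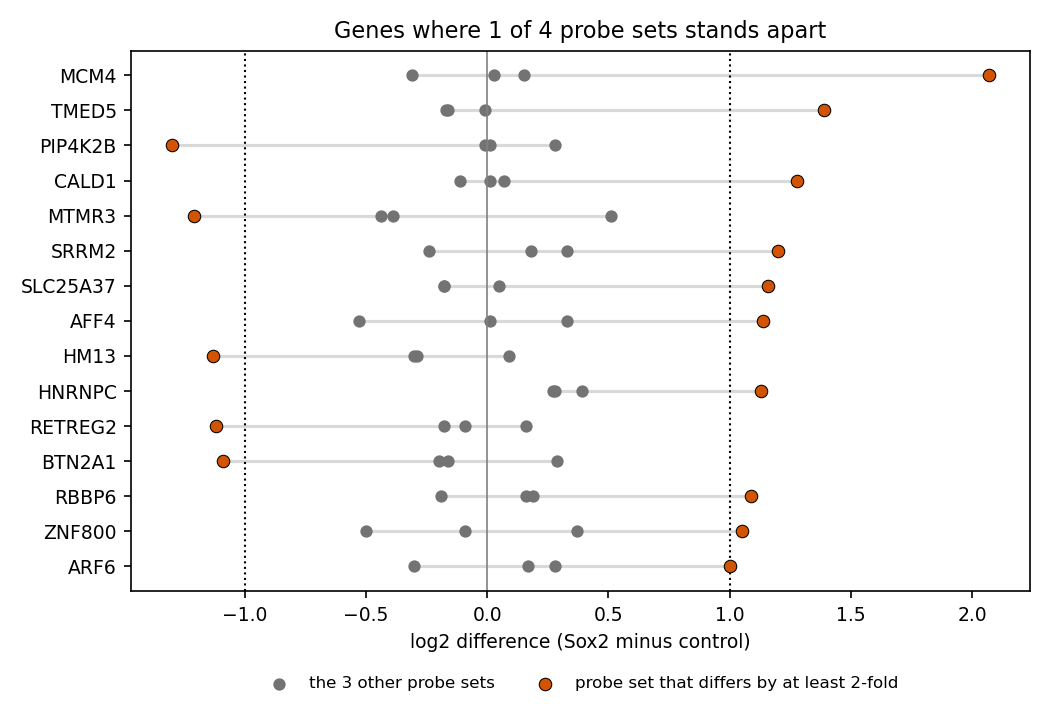
Log2 difference (Sox2 minus control) of the 4 readable probe sets of each of the 15 genes in which 1 differs by at least 2-fold (orange) and the 3 others by less than 1.5-fold (grey). MCM4 has the point farthest from 0, at 2.07, while its 3 other points lie between -0.31 and 0.15.

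MCM5 and MCM7 were the members whose probe sets agreed. MCM5, which lies at the gate where the ring opens around DNA, read 46.88 and 40.73 by 1 probe set and 44.84 and 38.62 by the other, differences of 0.20 and 0.22. Both are below the technical SD of 0.28. MCM7, whose promoter window is printed above, read 224.80 and 185.55 by 1 probe set and 104.00 and 82.31 by the other. Its differences of 0.28 and 0.34, or 1.21- and 1.26-fold, were about as large as the technical SD. At least 0.34 was found in 26.6% of readable named probe sets. Both MCM7 probe sets, and 1 of those of MCM5, are of a kind that may cross-hybridise. Over the whole array, 5495 genes had several readable probe sets and in 43.2% of them all lay on 1 side of 0. Of the 3 members with several, MCM5 and MCM7 did and MCM4 did not.

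MCM6, whose compound E2F sites are shown above, was not readable. Probe set 201930_at read 25.55 and 26.19, a difference of -0.036. Probe set 238977_at read 7.05 and 3.92, a difference of 0.85 between intensities in the lowest 4.31% of the array. Of these only the first is near the readable level, and there the arrays gave nearly the same value.

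MCM10, the activating factor, was below the readable level by all 3 probe sets. They read 32.56 and 28.93 (0.17), 9.47 and 11.02 (-0.22), and 15.03 and 5.19 (1.53, or 2.90-fold). The last is the only other member probe set past 2-fold. The brightest of the MCM10 probe sets did not show it, and another had the opposite sign.

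The loading factors were close in both arrays. CDC6 read 36.05 and 28.93 by 1 probe set, a difference of 0.32 near the readable level, and 5.52 and 5.70 by the other (-0.046). CDT1, which geminin holds inactive after S phase begins, read 67.47 and 55.15 by its readable probe set, a difference of 0.29. Its other probe set read 23.68 and 26.88 (-0.18). ORC1 had 1 probe set, which read 26.42 and 29.73 (-0.17) and was not readable. For CDC6 and CDT1 the brighter probe set was higher in the array labelled Sox2 and the dimmer one lower, so neither gene was read in 1 direction.

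**Figure D3:**
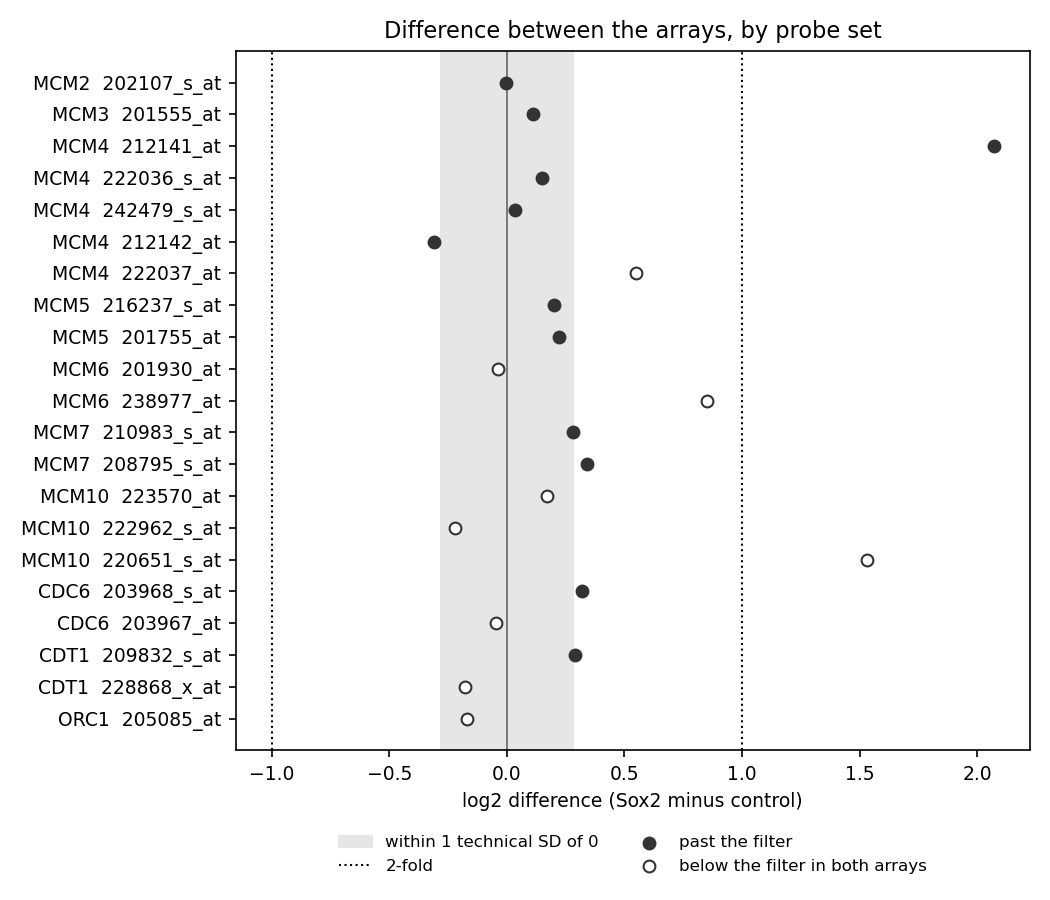
Log2 difference (Sox2 minus control) of the 21 member probe sets, filled where readable and open where below 34.25 on both arrays, with the band of 1 technical SD (0.28) in grey and 2-fold dotted. Of the 12 readable points, 7 lie inside the band, 4 lie just outside it, MCM4 212142_at at -0.31 and the others between 0.29 and 0.34, and MCM4 212141_at lies at 2.07.

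Counted by probe set, 10 of 12 readable ones were higher in the array labelled Sox2 and 2 lower, beside 50.02% higher among all readable named probe sets. Past 2-fold upward was 1 of the 12, against 1.97% of readable named probe sets, and none was 2-fold lower, against 0.523%. Differences of at least 1 technical SD were found in 5 of 12, against 34.5% of all. Since several of these probe sets read the same transcripts, they are not 12 separate observations. CDC6 203968_s_at was readable only through its Sox2 value, and MCM4 212142_at only through its control value. Each could thus enter only on its own side, and both are among the 5. The genes were also chosen with their differences known, so nothing is read from these counts.

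**Figure D4:**
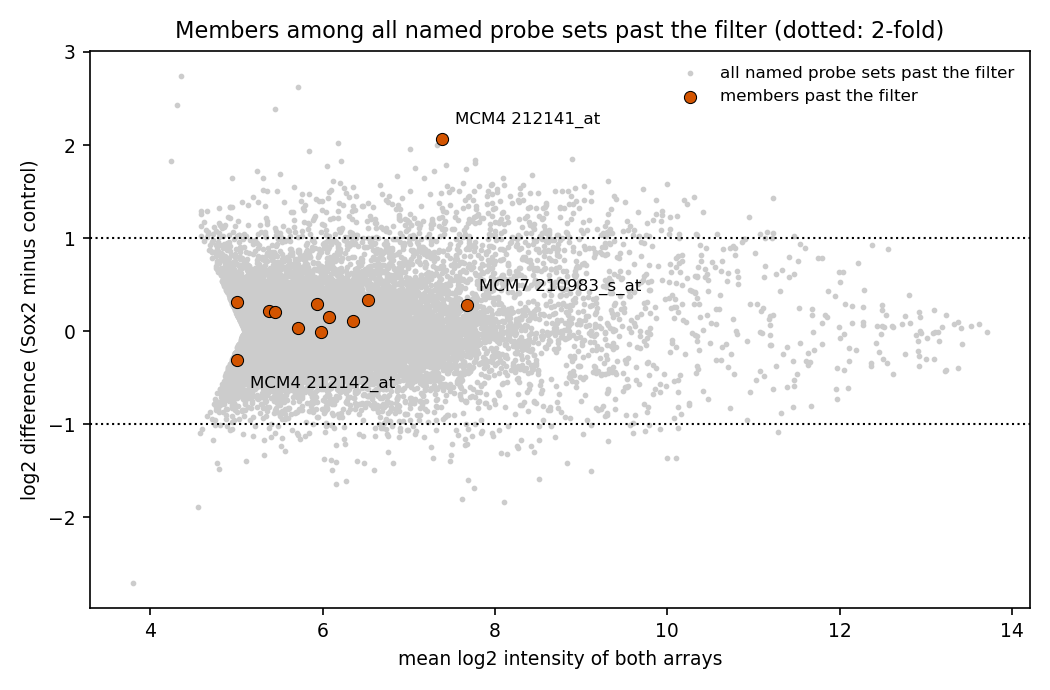
Log2 difference (Sox2 minus control) against mean log2 intensity for all 22938 readable named probe sets (grey) and the 12 of the members (orange), with 2-fold dotted. The members lie inside the cloud except MCM4 212141_at, and the edge at the left is made by the readable level.

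The other genes of licensing and replication were taken from lists, each gene by its brightest probe set. Over all 14253 readable genes, 2.05% were 2-fold higher, 0.645% were 2-fold lower and 49.56% lay above 0. Of 8 readable licensing genes, none reached 2-fold, 6 lay above 0 and the median was 0.10. ORC5, another subunit of the origin recognition complex, differed most, at 744.55 and 401.63 (1.85-fold), but its other readable probe set read 34.64 and 42.63. GMNN, which encodes geminin, was not readable, at 23.09 and 16.00. MCMBP, which binds free MCM proteins, read 46.45 and 45.42.

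Genes that act after loading showed no common direction. Of 6 readable helicase activation genes, none reached 2-fold and the median was -0.023. GINS4, a subunit of the GINS part of the active helicase, differed most at 35.93 and 48.79. Another of its readable probe sets read 34.79 and 39.60, on the same side. A further one read 37.51 and 19.71, on the other side, and was readable only through its Sox2 value. CDC45, the third part of the active helicase, was just below the readable level at 33.10 and 24.46. The fork synthesis list held 19 readable genes, of which 1 was past 2-fold upward and none downward (median 0.0081). RFC1, the large subunit of the clamp loader, read 181.38 and 78.93 (2.30-fold), with 64.49 and 52.71 by its other readable probe set. PCNA, the sliding clamp, is abundant in dividing cells but read 6.56 and 7.15, below the readable level.

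None of 8 nucleotide supply genes reached 2-fold (median 0.015). The largest difference was that of TK1, thymidine kinase, at 51.80 and 88.15, with 60.24 and 56.96 by another probe set. Of 14 readable genes of the E2F and RB list, 1 was past 2-fold upward and none downward (median 0.045). This was LIN52, a subunit of the DREAM complex that represses cell cycle genes, at 188.07 and 75.94 (2.48-fold), but at 50.53 and 72.38 by its other probe set. E2F1 itself read 101.82 and 99.27.

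The list of licensing turnover and checkpoint genes had 2 of 10 readable genes past 2-fold upward, against 2.05% of all readable genes. None was past it downward, against 0.645%, and the median was 0.35. CUL4B, a scaffold of ubiquitin ligases related to the one that destroys CDT1 in S phase, read 139.38 and 69.36 (2.01-fold), and 116.05 and 56.41 (2.06-fold) by its other readable probe set. CHEK1, the checkpoint kinase, read 74.70 and 36.99 (2.02-fold), but 40.84 and 43.21 by another. This list's median depended on the filter and on the probe sets taken. It was 0.12 with no filter, with the filter at the 75th percentile and with the filter on the mean, which left 9 genes. SKP2, of the ligase that marks CDT1 for destruction, was readable only through its higher value, at 35.61 and 23.69. The median was -0.037 with averaged probe sets, over 4 genes, and 0.046 without probe sets that may cross-hybridise, over 5. Under both of these alternatives the count past 2-fold upward was 0. It was 1 with quantile normalization and 5 with spike-in centring. Of 13 readable mitosis genes none reached 2-fold and the median was -0.065. Below 0 lay 9 of them, beside 7183 of all 14253 readable genes. CCNB1, the mitotic cyclin, came closest at 50.03 and 25.32 (1.98-fold). It was readable only through its Sox2 value, so it could enter only as higher. Its other probe set, not readable, read 4.56 and 4.21. Of the 4 listed genes past 2-fold, RFC1, LIN52, CUL4B and CHEK1, CUL4B was the only one whose other readable probe set was also past 2-fold. Both of those CUL4B probe sets are among those that may cross-hybridise, as is the brightest one of CHEK1. The other CUL4B probe sets, not readable, read 19.5 and 21.48, and 12.41 and 6.52.

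**Figure D5:**
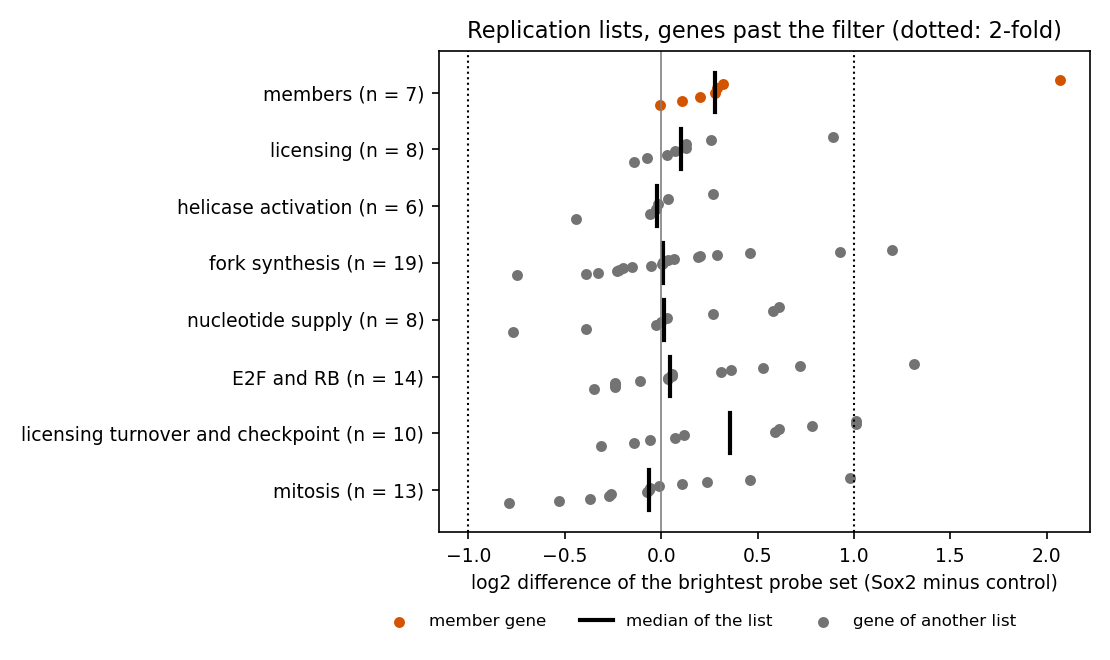
Log2 difference (Sox2 minus control) of the brightest probe set of each readable gene, by list, with members in orange, other genes in grey, list medians as black bars and 2-fold dotted. The medians run from -0.065 for mitosis to 0.28 for the members and 0.35 for licensing turnover and checkpoint, the last falling to 0.12 under each other filter tried, and the lowest member point is MCM2 at -0.0059.

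MCM4 and MCM7 each lie next to another protein-coding gene. PRKDC, the DNA-dependent protein kinase gene beside MCM4, read 39.80 and 39.98 by its readable probe set, which is near the readable level. Its others, below that level, read 22.53 and 23.83, and 3.38 and 4.39. Whether the reading of MCM4 212141_at extends to its neighbour was not tested. AP4M1, an adaptor protein gene beside MCM7, read 51.60 and 58.08.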

How the data were processed

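The authors deposited probe set intensities on a linear scale. The submitters' processing notes name RMA and no other tool, and its settings and last step were not given in the sources used here. Median intensities were 34.25 (Sox2) and 34.26 (control), and the 95th percentiles 162 and 156. The number of arrays limits the precision.

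Intensities were taken to log2 without further scaling. Probe sets were named by the platform annotation, updated through RefSeq identifiers: 41097 had 1 gene, 1801 several and 11777 none. Each gene was read by its brightest probe set (mean of both arrays) and entered when its higher value reached 34.25, which left 14253 of 19775 genes. Members and lists were chosen with earlier results of these data known. Genes named are the members, up to 4 genes past 2-fold or the 1 with the largest difference in each list, and the 5 with the largest single-probe-set difference among genes like MCM4. GMNN, MCMBP, CDC45, PCNA, E2F1 and SKP2 were named after their values were seen. Some genes of the lists were not analysed here. The counting procedure was run on simulated data with known changes and the same technical SD at all levels. Recovery of counts was required only for changes larger than 2-fold, so the run does not show how well 2-fold changes are counted. Alternatives covered the probe set taken, the filter, the scaling and the fold. Computations used Python 3.11.15, numpy 2.4.6, pandas 2.3.3 and statsmodels 0.14.6, and plots matplotlib 3.10.9.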

Additional observations from a re-analysis of the deposited data

How the results depend on the processing

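The members' median log2 difference of 0.28, over 7 members, lay between 0.19 and 0.29 under the filters, the other probe set choices and the median, lowess (span 0.3) and quantile scalings. These medians are not all over the same members. They covered 10 with no filter, 5 with the filter at the 75th percentile and 6 with the filter on the mean. Without _x_at and _s_at probe sets, which may cross-hybridise, 3 members were left, MCM3, MCM4 and MCM5. The median was 0.16 with averaged probe sets, over 6 members, and 1.03 with centring on the spike-ins, which shifts all genes by 0.75. The count of 1 member at least 2-fold higher became 0 with averaged probe sets, 4 with spike-in centring and, in an alternative chosen after seeing the data, 0 without MCM4 probe set 212141_at. It was 1 at 1.5-fold and at 3-fold, and no alternative gave a member 2-fold lower. Over all genes, 292 higher and 92 lower (76.0% higher of those counted) became 63 and 43 with averaged probe sets, 172 and 61 when _x_at and _s_at probe sets were left out, and 378 and 177 with no filter. Quantile normalization gave 213 and 117 (64.5% higher), spike-in centring 2869 and 3 (99.9%), 1.5-fold 921 and 537, and 3-fold 14 and 5. No paired analysis was possible because each group holds 1 array and the labels give no replicate numbers, and for the same reason no replicate could be left out. Signal limits MCM6, MCM10 and ORC1, which lay below the median of the array.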
